A study of Mus musculus with 12 samples.

Results

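The genes of the major histocompatibility complex (MHC) that encode class I and class II molecules, with their closest companions, were followed in the main olfactory epithelium (MOE), the lining of the nose in which odorants are detected. They were taken by gene symbol: every probe set whose symbols all name an H2 gene of the antigen-presenting kind, B2m, Cd74, Tap1, Tap2, Tapbp or Ciita, with the neighbouring H2-Ke genes left out. This gave 40 of 28944 experimental probe sets, 29 of class I and 11 of class II. The class I probe sets were 25 for heavy chains and 4 for companions, and the class II probe sets were 9 for chains and 2 for companions. Of the 40, 6 carry more than 1 symbol and are named with all of them. RefSeq lists the genes of 5 probe sets (H2-Bl, H2-K2, H2-Q5, H2-T10 and H2-Ea) as transcribed pseudogenes, and 2 shared probe sets name such a gene beside a coding one; they are counted here with the chains whose symbols they carry. The mean signal over all arrays exceeded log2 5, a level near background, for 39, and H2-M10.5 lay below it.

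The H2be-KO mice were aged 6 months and carry an allele in which the coding sequence of H2be, a histone H2B variant of olfactory neurons, is replaced by membrane-targeted mCherry. The WT mice, of the same age, have intact H2be. There were 6 arrays of each genotype, and each array held RNA pooled from 2 mice. The replacement is in the germ line, so every cell of the tissue carries it. Both sexes were used, and the labels do not give the sex of an array.

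MHC class I molecules are a heavy chain paired with beta-2 microglobulin, the product of B2m, and show peptides from inside a cell to CD8 T cells. Those peptides are cut by the proteasome, pumped into the endoplasmic reticulum by the Tap1 and Tap2 transporter and loaded with the help of tapasin, the product of Tapbp. Class II molecules are an alpha and a beta chain, are made mainly by dendritic cells, B cells and macrophages, and show peptides from engulfed material to CD4 T cells. Their chains are escorted by the invariant chain, the product of Cd74, and their transcription depends on the coactivator Ciita. In the nose, the H2-M10 heavy chains are known from sensory neurons of the vomeronasal organ, a separate structure.

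The DNA before 4 of these genes is shown because Tap1 gave the lowest p of all members, B2m serves every class I heavy chain, and H2-Aa and H2-Eb1 belong to the class II genes that moved together over the arrays. Sequences are from RefSeq on GRCm38.p6, read 5′ to 3′ on the strand of the gene and ending at the base before its start. Tap1 and Psmb9, a subunit of the immunoproteasome, lie head to head on chromosome 17 with 225 bases between them, all of which are shown. Capitals mark the Y box form CCAAT on either strand, the X box form AACNGATG and the interferon-response form GAAANNGAA.
Tap1, chr17:34187331-34187555, plus strand: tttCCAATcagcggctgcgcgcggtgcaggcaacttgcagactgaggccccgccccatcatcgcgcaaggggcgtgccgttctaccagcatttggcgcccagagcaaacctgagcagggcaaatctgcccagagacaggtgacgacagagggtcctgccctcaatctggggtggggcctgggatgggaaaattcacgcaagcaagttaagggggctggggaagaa
B2m, chr2:122147537-122147686, plus strand: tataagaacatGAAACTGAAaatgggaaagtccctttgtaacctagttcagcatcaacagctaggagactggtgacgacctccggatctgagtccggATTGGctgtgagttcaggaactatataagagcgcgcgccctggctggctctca
H2-Aa, chr17:34287824-34287973, minus strand: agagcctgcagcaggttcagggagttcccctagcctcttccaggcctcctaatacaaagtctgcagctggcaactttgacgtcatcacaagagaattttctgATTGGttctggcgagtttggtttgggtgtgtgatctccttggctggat
H2-Eb1, chr17:34305717-34305866, plus strand: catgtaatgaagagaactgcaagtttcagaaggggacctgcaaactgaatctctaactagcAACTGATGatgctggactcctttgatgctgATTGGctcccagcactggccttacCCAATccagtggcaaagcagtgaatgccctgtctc
The stretches of Tap1, B2m and H2-Aa each hold CCAAT on 1 strand and that of H2-Eb1 holds it on both, and the X box form is in that of H2-Eb1 and the interferon form in that of B2m. Among the 45 symbols of the members, 31 had an entry in the promoter table. In the 250 bases before the start, CCAAT was found for 28 of these 31 genes, against 33.8% of all 32851 windows in the table. AACNGATG was found for 5 of the 31 and in 1.98% of all windows, and GAAANNGAA for 3 of the 31 and in 7.13% of all windows. The kappaB form GGGGATTCC was found for 1 of the 31, that of H2-Q6, and in 0.213% of all windows. A gene was counted if any window under its symbol held the form, so these counts of genes and shares of windows are unlike measures. The forms do not overlap one another in the stretches shown, both strands were searched, and a match says only that the letters are there.

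Pairs of arrays correlated between 0.951 and 0.985 over the 28151 probe sets tested, and array medians lay between log2 7.84 and 7.90. The probe set of H2be itself, annotated H2bc21, averaged 11.65 ± 0.12 in H2be-KO arrays and 11.89 ± 0.17 in WT arrays (SD, n = 6 each), so it still gave signal in H2be-KO. Where its probes lie relative to the replaced sequence is not given in the sources used here, so this does not check the labels. The olfactory neuron markers Omp and Cnga2 averaged 12.90 and 12.20 in H2be-KO and 12.90 and 12.11 in WT, as the tissue label says. The Y-linked genes split the arrays in both genotypes: their mean signal was 1.61 to 2.03 in H2be-KO replicates 1 to 3 and 1.71 to 2.28 in WT replicates 1 to 3, and 9.53 to 9.69 in H2be-KO replicates 4 to 6 and 9.35 to 9.71 in WT replicates 4 to 6.

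Tap1, a chain of the class I peptide transporter, was the single MHC member with a lower signal in H2be-KO that reached an unadjusted limma p under 0.05, and no member was higher. Of all 28151 probe sets, 1.77% were lower and 3.78% higher at that threshold, so 1 of 39 lower and 0 of 39 higher is near or under the background. After Benjamini-Hochberg adjustment limma called 0 members and 0 of all probe sets. The count of members lower in H2be-KO was 4 without H2be-KO replicate 4 (Tap1, Tap2, H2-M3 and the probe set shared by H2-T-ps and H2-T23), 4 without WT replicate 6 (Tap1, Ciita, H2-T10 and H2-M10.1) and 2 without WT replicate 2 (Tap1 and H2-Aa), and it was 1 without each of the other arrays. For those named arrays in the same order, 600, 1552 and 449 of all 28151 probe sets were lower, against 498 with no array left out.

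On the log2 signal scale, Tap1 gave a lowest, median and highest value of 7.47, 7.75 and 8.08 over the 6 H2be-KO arrays, against 7.91, 8.18 and 8.35 over the 6 WT arrays. The H2be-KO values were below the whole WT range on 5 of 6 arrays, and replicate 4 lay above the lowest WT values, so the groups overlap. The means were 7.75 ± 0.22 in H2be-KO and 8.16 ± 0.15 in WT (SD, n = 6 each), a log2 difference of -0.40 ± 0.11 (limma SE) or 0.757-fold, with a 95% interval of -0.63 to -0.17. The exact two-sided permutation p over the 924 ways to choose 6 of 12 arrays was 0.0065 and the limma adjusted p over all probe sets was 0.753. In a tissue, fewer cells of a type and less RNA per cell cannot be told apart.

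The Tap1 difference had a larger value among the arrays with low Y-linked signal. There, 3 H2be-KO arrays ranged from 7.47 to 7.78 and 3 WT arrays from 8.18 to 8.35, with no overlap and a log2 difference of -0.60 ± 0.12 (limma SE). Among the arrays with high Y-linked signal, the 3 H2be-KO arrays ranged from 7.59 to 8.08 and the 3 WT arrays from 7.91 to 8.17, with a log2 difference of -0.20 ± 0.17 and an unadjusted limma p of 0.279. The difference between these 2 values was not tested, and this split was chosen after the data had been seen.

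**Figure D1:**
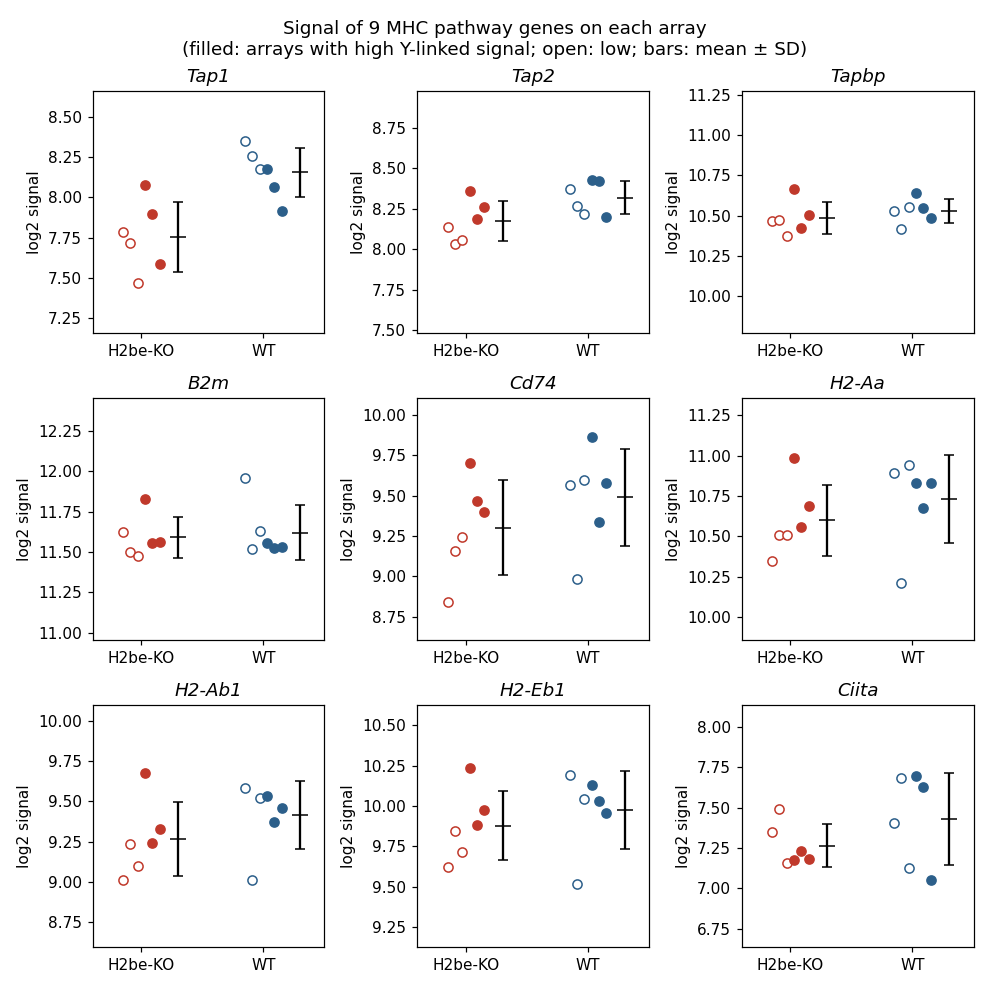
Log2 signal of 9 MHC pathway genes, H2be-KO arrays left and WT arrays right, with 1 point for each of 6 arrays per genotype and bars for the mean ± SD; filled points are arrays with high and open points arrays with low Y-linked signal. Every panel spans 1.5 log2 units, and the groups overlap in all 9, least in Tap1.

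The other class I companions gave smaller differences, none past the threshold. Tap2, the partner of Tap1 in the transporter, had a lowest, median and highest log2 signal of 8.03, 8.16 and 8.36 in H2be-KO, against 8.20, 8.32 and 8.43 in WT. Its log2 difference was -0.15 ± 0.08 (limma SE), with an exact permutation p of 0.045, an unadjusted limma p of 0.093 and a limma adjusted p of 0.753. On 2 of 6 H2be-KO arrays Tap2 lay within the WT range, so the groups overlap.

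B2m, the light chain of all class I molecules, read 11.48, 11.56 and 11.83 in H2be-KO and 11.52, 11.54 and 11.96 in WT (lowest, median and highest log2 signal). The log2 difference of B2m was -0.03 ± 0.09 (limma SE), with a 95% interval of -0.23 to 0.17. The sign of the B2m difference turned with the arrays used: it was 0.04 without WT replicate 1, its highest array, -0.17 among the arrays of low and 0.11 among those of high Y-linked signal. Tapbp, which bridges the transporter and the empty class I molecule, read 10.38, 10.47 and 10.67 in H2be-KO and 10.42, 10.54 and 10.64 in WT, a log2 difference of -0.04 ± 0.07. The intervals of B2m and Tapbp hold 0 and leave room for changes up to -0.23 and -0.20 on the log2 scale. A pair of further probe sets that name Tapbp together with the ribosomal protein gene Rps3a1 fell outside the rule; they read 10.51 to 10.62 and 11.18 to 11.27 in H2be-KO and 10.45 to 11.61 and 11.17 to 12.05 in WT, with differences of -0.51 and -0.39 (exact permutation p = 0.043 and 0.028; limma adjusted p = 0.753 each), and their signal cannot be assigned to either gene.

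No class I heavy chain passed the threshold. Of the 24 tested, 18 differences were below 0 and 6 above it, from -0.23 to 0.20 on the log2 scale. The classical heavy chains H2-K1 and H2-D1 have only a pair of probe sets that they share with each other and with LOC547349, which put both outside the rule. These probe sets averaged 10.78 ± 0.23 and 10.46 ± 0.19 in H2be-KO and 10.82 ± 0.14 and 10.47 ± 0.16 in WT (SD, n = 6 each). Their log2 differences were -0.04 ± 0.11 and 0.00 ± 0.10 (limma SE), smaller than the SD in either genotype.

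Among the nonclassical heavy chains, which have fewer variants and narrower roles, the 6 probe sets of the H2-Q group had a median difference of -0.06. H2-Q4 gave 8.80, 8.95 and 9.46 in H2be-KO, against 8.80, 8.98 and 9.35 in WT (lowest, median and highest log2 signal), a difference of -0.01 ± 0.13 that was -0.22 among the arrays of low and 0.21 among those of high Y-linked signal. H2-Q2 gave 7.97, 8.09 and 8.28 in H2be-KO and 7.94, 8.19 and 8.49 in WT, a difference of -0.09 ± 0.10. In both genes the ranges of the genotypes overlap over most of their width.

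The 6 probe sets of the H2-T group, in which H2-Bl was counted, had differences on both sides of 0. Only H2-T24 and H2-Bl (0.09) lay above it. H2-T24 had the highest difference of all members, with 7.49, 7.71 and 7.96 in H2be-KO and 7.10, 7.60 and 7.71 in WT, a log2 difference of 0.20 ± 0.12 (exact permutation p = 0.145, limma adjusted p = 0.753). The probe set shared by H2-T-ps and H2-T23, the gene of the Qa-1 antigen, ranged from 8.99 to 9.73 in H2be-KO and from 9.49 to 9.69 in WT, a difference of -0.17 ± 0.11. H2-T24, H2-T10 and the shared probe set were chosen after their values were seen. H2-T10, listed as a transcribed pseudogene, ranged from 7.49 to 7.77 in H2be-KO and from 7.38 to 7.97 in WT, a difference of -0.14 ± 0.10.

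The H2-M group, with 11 probe sets tested, had a median difference of -0.05, and 9 of its differences were below 0. H2-M3, known for presenting formylated bacterial peptides, and also named after its values were seen, ranged from 6.02 to 6.92 in H2be-KO and from 6.36 to 6.94 in WT, a log2 difference of -0.19 ± 0.14. The 5 tested probe sets of the H2-M10 genes all had differences below 0, from -0.23 to -0.02, with no unadjusted p under 0.05. The untested H2-M10.5, near background, had a difference of 0.09. H2-M10.1 gave 7.48, 7.77 and 7.98 in H2be-KO, against 7.23, 7.99 and 8.21 in WT (lowest, median and highest log2 signal), a difference of -0.16 ± 0.15. Its lowest WT array lay below every H2be-KO array, so the groups overlap.

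H2-M10.4 was among the dimmest members, with 5.30, 5.38 and 5.55 in H2be-KO and 4.83, 5.55 and 5.91 in WT, a difference of -0.07 ± 0.14. H2-M1 read 5.16, 5.28 and 5.51 in H2be-KO and 4.82, 5.42 and 5.53 in WT, a difference of 0.05 ± 0.14. H2-M10.5, left out by the filter, ranged from 4.46 to 5.33 in H2be-KO and from 4.38 to 4.999 in WT. Of 5 vomeronasal neuron markers listed, 3 had a probe set, and their summed linear signal was 135 to 182 in H2be-KO and 134 to 191 in WT. The range of that sum was nearly the same in both genotypes. Vmn2r81 did not pass the filter, Vmn2r26 averaged 5.29 in H2be-KO and 5.34 in WT, and Vmn2r1 6.29 and 6.33. With signals this close to background, the sum can show little about vomeronasal tissue.

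No class II gene passed the threshold, and 9 of 11 differences were below 0. The members span -0.19 to 0.07 on the log2 scale. Cd74, the invariant chain, had the most negative difference: it gave a lowest, median and highest log2 signal of 8.84, 9.32 and 9.70 in H2be-KO, against 8.99, 9.57 and 9.87 in WT. The difference was -0.19 ± 0.15 (limma SE, 95% interval -0.51 to 0.14, exact permutation p = 0.292, limma adjusted p = 0.764). The lowest and highest of the 12 arrays belong to different genotypes, and the ranges overlap over most of their width. Leaving out H2be-KO replicate 1 brought the Cd74 difference to -0.10, and leaving out WT replicate 4 or WT replicate 2 to -0.11 or -0.29. It was -0.30 among the arrays of low and -0.07 among those of high Y-linked signal.

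The chains of the classical class II molecules A and E gave differences of similar size. H2-Aa, the alpha chain of A, gave 10.35, 10.53 and 10.99 in H2be-KO, against 10.21, 10.83 and 10.94 in WT, a log2 difference of -0.13 ± 0.13. H2-Ab1, its beta chain, gave 9.01, 9.24 and 9.68 in H2be-KO and 9.01, 9.49 and 9.59 in WT, a difference of -0.15 ± 0.12. H2-Eb1, the beta chain of E, gave 9.62, 9.86 and 10.23 in H2be-KO and 9.51, 10.04 and 10.19 in WT, a difference of -0.10 ± 0.12. In these 3 chains the medians were lower in H2be-KO, but H2be-KO replicate 4 was the highest of all 12 arrays and WT replicate 2 the lowest, level in H2-Ab1 with H2be-KO replicate 1. Single arrays moved these differences by over 1.5 times. Without H2be-KO replicate 1 they were -0.08 for H2-Aa, -0.10 for H2-Ab1 and -0.05 for H2-Eb1, a value H2-Eb1 also had with WT replicate 1 left out. Without WT replicate 2 they were -0.24, -0.23 and -0.19 in the same order, and without H2be-KO replicate 4 they were -0.21, -0.23 and -0.17.

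H2-Ea, named for the alpha chain of E and listed by RefSeq as a transcribed pseudogene, ranged from 6.95 to 7.41 in H2be-KO and from 6.79 to 7.42 in WT, a difference of 0.07 ± 0.12. H2-Eb2, a minor E beta gene and one of the dimmest members, gave 5.32, 5.93 and 6.13 in H2be-KO, against 5.20, 5.88 and 6.57 in WT, a difference of -0.11 ± 0.19.

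The genes that load class II molecules showed no difference past the threshold either. H2-DMa, part of the DM molecule that exchanges peptides, gave 7.40, 7.75 and 8.04 in H2be-KO and 7.48, 7.68 and 7.89 in WT, a log2 difference of 0.02 ± 0.11. The probe set shared by H2-DMb2 and H2-DMb1, the DM beta chains, ranged from 9.56 to 10.03 in H2be-KO and from 9.75 to 10.09 in WT, a difference of -0.06 ± 0.10. H2-Oa and H2-Ob encode the inhibitor of DM, with differences of -0.14 ± 0.12 and -0.17 ± 0.16. Ciita, the class II coactivator, gave 7.16, 7.21 and 7.49 in H2be-KO, against 7.05, 7.52 and 7.69 in WT, a difference of -0.17 ± 0.12 (exact permutation p = 0.206). The H2be-KO values of Ciita were tightly grouped inside the wider WT range.

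**Figure D2:**
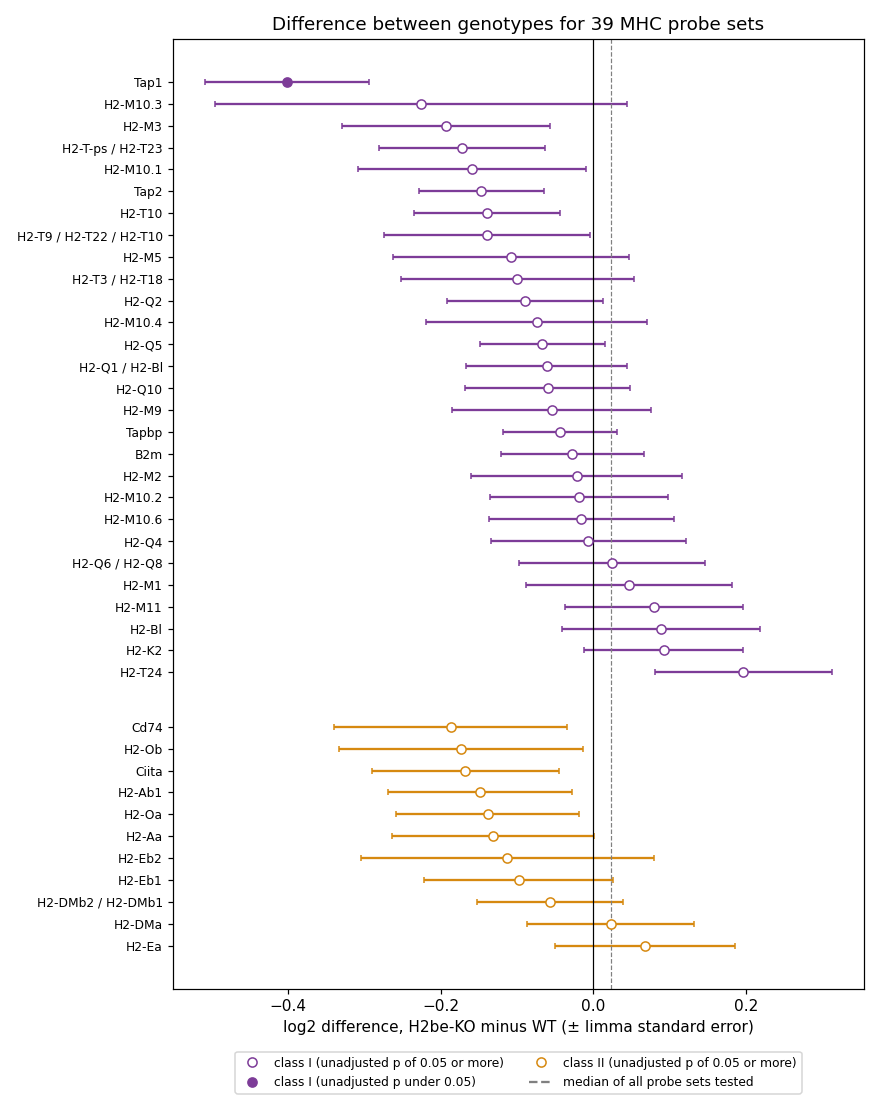
Log2 difference (H2be-KO minus WT, horizontal axis) with limma's standard error for the 39 MHC probe sets tested, class I above and class II below; the filled point has an unadjusted p under 0.05 and the dashed line is the median of all probe sets tested. Tap1 lies at -0.40, and the other 38 lie between -0.23 and 0.20.

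Set side by side, the classes did not separate. The median difference was -0.06 over the 28 class I probe sets and -0.13 over the 11 class II probe sets, beside 0.02 over all 28151. Of all members, 31 of 39 differences (79.5%) were below 0, against 43.8% of all probe sets, and the members, measured on the same arrays and some of them under shared symbols, are not independent of each other. The mean over class II less the mean over class I was 0.64 ± 0.07 in H2be-KO and 0.68 ± 0.11 in WT (SD, n = 6 each); its level depends on the probes, and its change between genotypes, -0.04, was smaller than either SD. After quantile normalization 33 of 39 members were below 0, and after median centring 31 of 39. The median difference of all probe sets was then -0.0006 and 0.013, in the same order. The share of all probe sets below 0 was not counted under these scalings.

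The spread between arrays of 1 genotype was as large as most of these differences. The pooled within-genotype SD had a median of 0.21 over class I and 0.22 over class II, beside 0.20 over all probe sets. It ran from 0.09 for Tapbp to 0.56 for H2-M10.3, which ranged from 6.29 to 7.86 in H2be-KO and from 6.37 to 7.80 in WT. Single arrays stood out across members. H2be-KO replicate 4 was the highest array of its genotype for 13 of 28 class I and 6 of 11 class II probe sets, and H2be-KO replicate 3 was the lowest for 13 class I and 4 class II probe sets. WT replicate 6 was the lowest of its genotype for 15 class I and 5 class II probe sets, and WT replicate 1 the highest for 10 class I and 2 class II probe sets. Within class II, WT replicate 2 was also the lowest for 5 probe sets, and WT replicate 4 was the highest for 5.

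**Figure D3:**
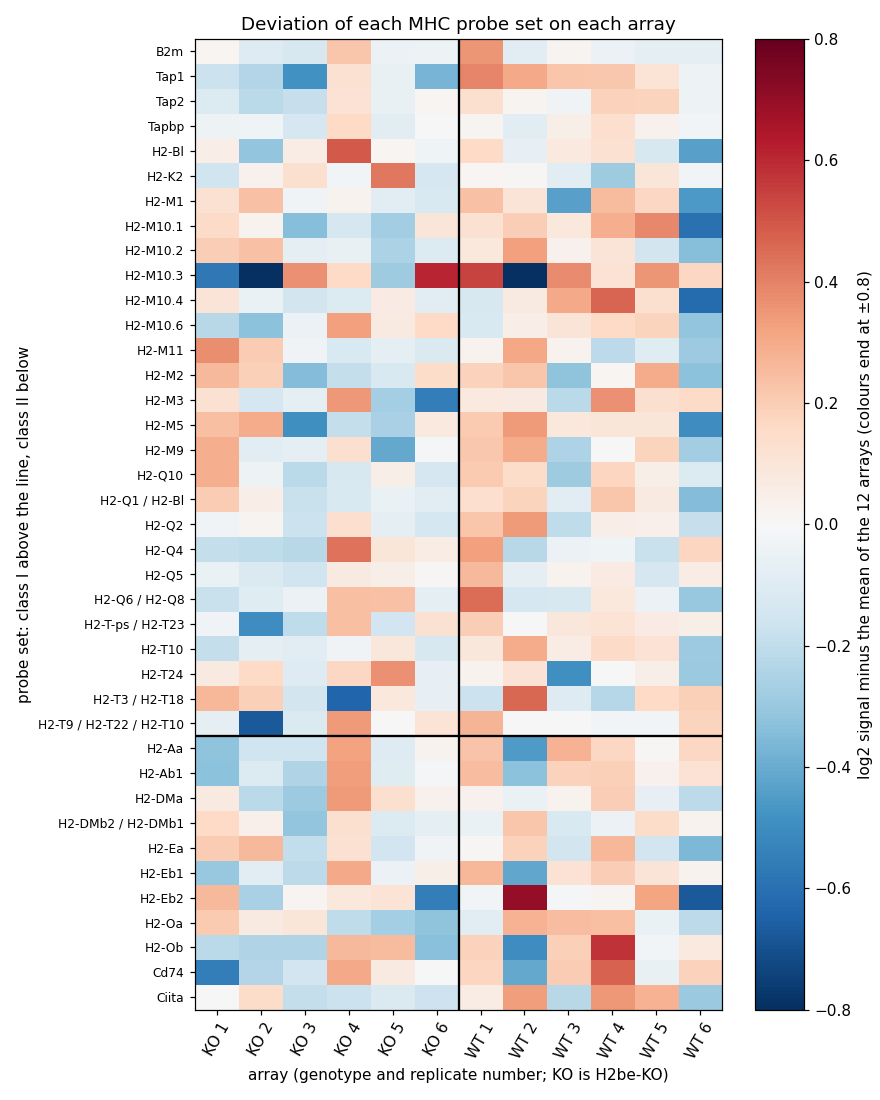
Log2 signal of each of the 39 tested MHC probe sets (rows, class I above the line) less its mean over the 12 arrays (columns, 6 H2be-KO left and 6 WT right), on a scale that ends at ±0.8. Cd74, H2-Aa, H2-Ab1 and H2-Eb1 are low together on H2be-KO replicate 1 and WT replicate 2 and high together on H2be-KO replicate 4.

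The classical class II genes moved together from array to array in both genotypes. Over the 12 arrays, H2-Aa correlated with Cd74 at Pearson r = 0.90 (permutation p = 9e-05, adjusted over 10 relations 0.00045) and Spearman rho = 0.91 (permutation p = 0.0001, adjusted 0.0007). H2-Ab1 correlated with Cd74 at r = 0.90 (permutation p = 8e-05, adjusted 0.00045) and rho = 0.90 (permutation p = 0.00014, adjusted 0.0007). H2-Eb1 did so at r = 0.87 (permutation p = 0.00025, adjusted 0.00083) and rho = 0.85 (permutation p = 0.00071, adjusted 0.0024). The arrays farthest from the median of Cd74 were H2be-KO replicate 1 and WT replicate 2, and without them the 3 values of r were 0.81, 0.81 and 0.75.

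With each genotype centred on its mean, r was 0.89, 0.89 and 0.87 for H2-Aa, H2-Ab1 and H2-Eb1, so the relation was also there within the genotypes. Within the arrays of low Y-linked signal r was 0.95, 0.94 and 0.91, and within those of high Y-linked signal 0.70, 0.74 and 0.62 (6 arrays each).

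Ciita and B2m showed no such relation with Cd74 past the threshold. Ciita gave r = -0.20 (permutation p = 0.54, adjusted 0.60) and rho = -0.25 (permutation p = 0.43, adjusted 0.46), and r = 0.05 without the same pair of arrays. B2m gave r = 0.35 (permutation p = 0.26, adjusted 0.33) and rho = 0.50 (permutation p = 0.10, adjusted 0.14), and r = 0.45 without that pair. The class I light chain and the class II coactivator thus did not track Cd74 as closely as the class II chains did, a contrast that was not itself tested. Their relations with the class II chains themselves were not run.

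**Figure D4:**
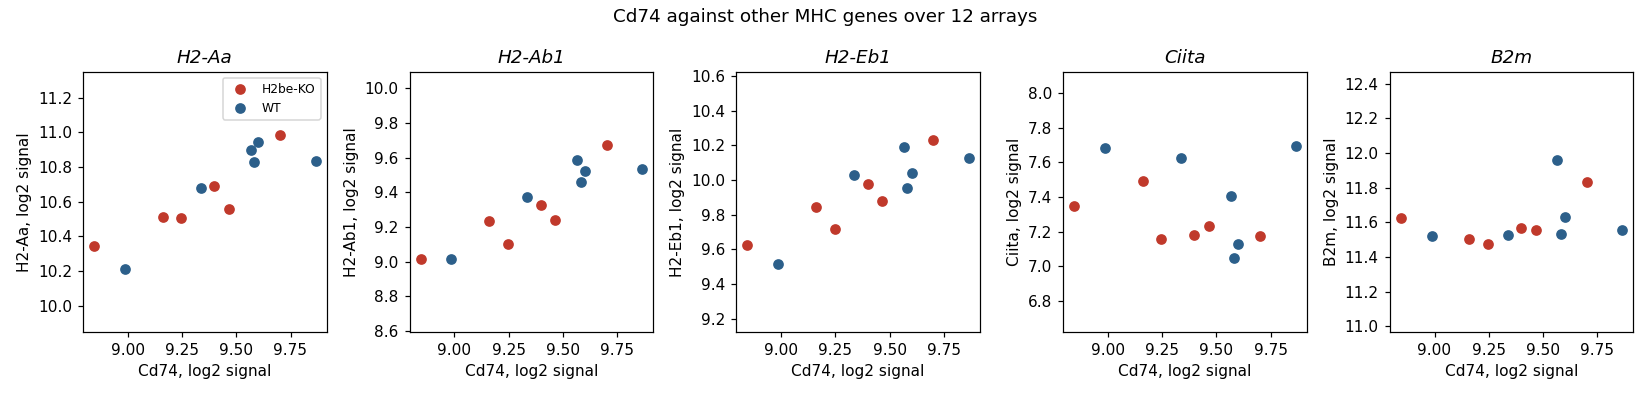
Log2 signal of H2-Aa, H2-Ab1, H2-Eb1, Ciita and B2m (vertical axes, each spanning 1.5 log2 units) against that of Cd74 (horizontal axes), with 1 point for each of 6 H2be-KO and 6 WT arrays. The 3 class II chains rise with Cd74 (r of 0.90, 0.90 and 0.87), and Ciita and B2m do not line up (r of -0.20 and 0.35).

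On the class I side, Tap2 correlated with Tap1 at r = 0.71 (permutation p = 0.011, adjusted 0.028) and rho = 0.69 (permutation p = 0.015, adjusted 0.038). Without H2be-KO replicates 3 and 6, the farthest in Tap1, r was 0.75, and with the genotypes centred it was 0.51. Within the arrays of low and of high Y-linked signal it was 0.93 and 0.66. Psmb9, which shares the intergenic stretch shown with Tap1, correlated with it at r = 0.65 (permutation p = 0.023, adjusted 0.038) and rho = 0.62 (permutation p = 0.037, adjusted 0.064). Without the same pair r was 0.50, with the genotypes centred it was 0.75, and within the arrays of low and of high Y-linked signal it was 0.67 and 0.69. Psmb9 itself ranged from 7.72 to 8.21 in H2be-KO and from 7.71 to 8.35 in WT, a log2 difference of -0.09 ± 0.12, which did not pass the threshold. Whether the differences of Psmb9 and Tap1 differ was not tested.

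The other genes of both pathways did not pass it. Of 11 further class I pathway genes, 0 were higher and 0 lower at an unadjusted limma p under 0.05. Of all probe sets, 3.78% were higher and 1.77% lower. The class I pathway genes had a median difference of 0.05. Among them Psmb8, an immunoproteasome subunit between Tap1 and Tap2 on the chromosome, had a difference of -0.14 ± 0.10, and Pdia3, which joins tapasin in the loading complex, 0.14 ± 0.12. Nlrc5, the class I coactivator, has 19 probe sets, with differences from -0.28 to 0.08 and none past the threshold. Of 9 further class II pathway genes, 0 were higher and 0 lower, with a median difference of 0.04; Rfxank, a subunit of the factor that binds the X box, had -0.12 ± 0.11.

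Of 20 interferon-induced genes listed, 15 had a probe set with that symbol alone, and at the same threshold 1 was higher and 0 lower, beside 3.78% and 1.77% of all probe sets. Oas1a, an antiviral enzyme, ranged from 5.16 to 6.03 in H2be-KO and from 4.97 to 5.67 in WT, a difference of 0.34 ± 0.16 (exact permutation p = 0.084, limma adjusted p = 0.753), and Irf7, an interferon regulatory factor, had -0.24 ± 0.13. The median difference over the 15 genes was 0.00.

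Markers of the cells that carry class II molecules did not pass the threshold between genotypes. Of all probe sets, 3.78% were higher and 1.77% lower at that threshold, and these lists are short. Of 12 macrophage markers 0 were higher and 0 lower, and their summed linear signal was 4038 to 6548 in H2be-KO and 4317 to 5706 in WT. Lyz2, which averaged log2 11.10 in H2be-KO and 11.11 in WT, is the brightest of them and weighs most in that sum. Of 9 dendritic cell markers 0 were higher and 0 lower, with sums of 1870 to 2072 in H2be-KO and 1722 to 2458 in WT. Of 8 B cell markers 7 had a probe set and 6 were tested, with 0 higher and 0 lower, and sums of 641 to 942 in H2be-KO and 670 to 1052 in WT. The lowest limma p of the macrophage list were those of Fcgr1 (log2 difference -0.20 ± 0.09) and Mrc1 (0.23 ± 0.13). For dendritic cells they were Zbtb46 (-0.19 ± 0.09) and Cd209a (-0.17 ± 0.12), and for B cells Cd22 (-0.20 ± 0.11) and Fcer2a (0.10 ± 0.14). The exact permutation p was 0.052 for Fcgr1 and for Zbtb46.

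Of all the listed markers, C1qa of macrophages correlated with Cd74 at r = 0.65 (permutation p = 0.021, adjusted 0.038) and rho = 0.62 (permutation p = 0.038, adjusted 0.064). Without the 2 farthest arrays r fell to 0.45, so the relation rests partly on them. With the genotypes centred r was 0.80 (0.86 within H2be-KO and 0.78 within WT). It was 0.82 within the arrays of low and 0.28 within those of high Y-linked signal. Itgax of dendritic cells gave r = 0.42 (permutation p = 0.18, adjusted 0.25) and rho = 0.40 (permutation p = 0.20, adjusted 0.25), and r = 0.03 without them. For Itgax r was 0.87 within H2be-KO and 0.03 within WT, and 0.90 within the arrays of low and -0.38 within those of high Y-linked signal (6 arrays each), a difference that was not tested. Cd79a of B cells, whose signal, 4.44 to 5.54 in H2be-KO and 4.22 to 5.26 in WT, lies near background, gave r = 0.15 (permutation p = 0.64, adjusted 0.64) and rho = 0.24 (permutation p = 0.46, adjusted 0.46), and r = 0.21 without them. Each cell type rests on 1 marker here, and Cd79a did not pass the filter. Relations of Cd74 with the other listed markers were not run, so these values do not show whether such cells follow Cd74. The part of these cells in the class II values was not tested.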

How the data were processed

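RNA of whole MOE was measured on Affymetrix Mouse Gene 1.0 ST arrays, 12 in all. The authors screened the arrays for outliers with arrayQualityMetrics, summarised probes by IterPLIER and applied sketch-quantile normalization in Expression Console (version not given in the sources used here). Deposited were log2 signals, and that normalization removes much of a change common to most transcripts. The median difference over all probe sets tested was still 0.02. Precision is limited by the number of arrays, which give no counts. Sample titles gave the groups.

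Gene symbols are those of the platform annotation; of 28944, 21789 have 1 gene symbol, 1621 several and 5534 none, and the control probe sets were left out. Those with a mean above log2 5, the level named in the study's methods (28151), were fitted with genotype in limma 3.58.1 (R 4.3.3, lmFit and eBayes), with Benjamini-Hochberg adjustment over all of them. The fit was tested on simulated data. Single values carry exact permutation tests over 924 choices (the smallest p they allow is 0.0022), and correlations have 100000 resamples. All tests are two-sided.

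Members and lists were chosen with earlier results of these data known. Named genes were the pathway's core genes, members with an unadjusted p under 0.05, the 3 brightest and 3 dimmest other members with 1 symbol and the lists' lowest p. The genes of the planned relations were named as well. A gene's brightest probe set is given. Any other member was named after its values were seen. Relations of H2-K1 and H2-D1 were not run, as neither has a probe set of its own, and 1 other planned relation is not reported here. Alternatives covered the filter, a floor, quantile normalization, median centring, the replicate block, a Y-linked covariate, robust moderation with a trend, array weights, averaging by symbol, single-symbol members, arrays left out and, added after seeing the data, the split by Y-linked signal. Replicate numbers of the 2 genotypes were not treated as pairs. Sequences are RefSeq's on GRCm38.p6; H2-Ab1 and Tap2 are not shown.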

Additional observations from a re-analysis of the deposited data

Results flagged for a closer look

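Of the 78 sets of 6 arrays examined (39 probe sets in each genotype), 7 held an array far from the other 5, and chance alone would flag about 5% of such sets. All 7 were WT sets. WT replicate 2 was far below the rest for the class II chains H2-Aa (10.21, against 10.68 to 10.94 on the other 5 arrays), H2-Ab1 (9.01, against 9.37 to 9.59) and H2-Eb1 (9.51, against 9.95 to 10.19), and for H2-M10.3 (6.37, against 7.37 to 7.80). WT replicate 6 was far below the rest for H2-M10.1 (7.23, against 7.91 to 8.21) and H2-M5 (6.47, against 7.05 to 7.32). WT replicate 1 was far above the rest for B2m (11.96, against 11.52 to 11.63).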

How the results depend on the processing

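The medians of class I and class II stayed below 0 under all 26 alternatives, from -0.15 to -0.02 and from -0.19 to -0.04, and class II minus class I ranged from -0.07 to 0.0017, above 0 only without H2be-KO replicates 1 and 6. Tap1 kept its sign under all 26 (from -0.60 to -0.20) and an unadjusted limma p under 0.05 under 25, the exception being the arrays with high Y-linked signal, where the count of lower members was 0; among the arrays with low Y-linked signal it was 3. With array weights it was 3 (Tap1, Tap2 and H2-T10), and with single arrays left out it ranged from 1 to 4. Of all probe sets, 1405 were lower with array weights and from 313 to 1552 with single arrays left out. Among the arrays with low and with high Y-linked signal, 329 and 274 of all probe sets were lower. Members higher numbered 0 under each alternative except 1 (H2-T24) with the replicate block. The cause of these changes was not tested. With the replicate block Tap1 stayed at -0.40 (limma adjusted p = 0.468), and 2039 of all probe sets were higher and 951 lower, against 1065 and 498 without it. With the genotype mean taken from each probe set, the remaining deviations of same-numbered H2be-KO and WT arrays correlated at 0.03 to 0.59. On that measure 4 of 6 H2be-KO arrays correlated best with the WT array of their own number. Replicates 1 to 3 have low and 4 to 6 high Y-linked signal in both genotypes, and that split was left in these deviations. Its part in this match was not tested. Quantile normalization turned the split of all calls to 828 higher and 899 lower, and median centring to 896 and 635. H2-M1, H2-M10.4 and H2-M10.5 read near log2 5, where background limits what a difference can show.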
